A study of Caenorhabditis elegans with 4 samples.

Results

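ZIM-1 is a C2H2 zinc finger protein of Caenorhabditis elegans known for its role at the pairing centers of 2 chromosomes, II and III, in meiosis. The regions described here are its strong sites, chosen by score and overlap: peaks on chromosomes II, III, IV, V and X in the series-wide list whose deposited score was at least 100 and that shared at least 1 bp with a peak in each of the 2 ChIP replicate lists. There were 409 such sites among the 7742 series-wide peaks of these 5 chromosomes, or 5.28%, and among 9439 peaks in the whole series-wide list. The rule used the score and the overlap, so both are given below as descriptions, and no test was made on them.

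The data came from chromatin immunoprecipitation followed by sequencing (ChIP-seq), which recovers the DNA bound to a protein with an antibody. The 2 groups were ZIM-1 ChIP (2 libraries) and input, meaning chromatin DNA without immunoprecipitation (2 libraries), from which no values were analysed here. All 4 samples were of the genotype fem-2(b245)III, a mutant allele of the sex determination gene fem-2, and no wild-type sample was analysed here. The labels call the animals hermaphrodites and young adults with a germline, kept at 20 °C, while the growth protocol describes harvest of gravid adults, and whole worms were used. The antibody was an affinity-purified rabbit polyclonal. Whether the replicates were separate cultures is not stated in the labels, and differences between them may be technical only.

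In meiosis each C. elegans chromosome carries near 1 of its ends a pairing center, a region rich in short repeated motifs. There the zinc finger proteins ZIM-1, ZIM-2, ZIM-3 and HIM-8 bind, each serving its own chromosome or pair of chromosomes. The bound regions attach to the nuclear envelope, where homologous chromosomes find each other and begin synapsis. ZIM-1 serves II and III, ZIM-2 serves V, ZIM-3 serves IV among others, and HIM-8 serves X. The pairing center lies toward the left end of II, III, IV and X and toward the right end of V, and these are called the pairing-center ends below.

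The replicate 1 list held 5552 peaks and the replicate 2 list 2887, of which 4605 and 2424 lay on the 5 chromosomes. Read depth is unknown. The score is the authors' own, written by their peak caller with no name for the quantity, and it was ranked only within a list. Intervals are at 95%, treat each site as 1 count and cover counting error only. Sites lay in clusters, so these intervals are too narrow.

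Overlap with the replicates removed nothing at this score: 409 of the 409 peaks with a score of 100 or more had a peak in both replicates. The background share found in both was 26.4% of all peaks on these chromosomes. By score, 2.31% of the 4548 peaks under 10 were in both lists, 24.7% of the 1407 peaks from 10 to 20, 79.5% of the 933 peaks from 20 to 50, and 99.8% of the 445 peaks from 50 to 100. The highest score of any peak missing from a replicate was 68.12. The strong sites are therefore set by the score alone, and they make up 20.0% of the 2047 peaks found in both replicates. The other 1638 of these peaks, with scores under 100, are the closest comparison group and are called weaker shared peaks.

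Scores of the strong sites had a median of 143.08 and began at 100.18. At the upper end 74 sites were tied at 174.44, the highest score of the list, and the next site below the tie had 174.05. The 5 lowest strong sites started at 6267349 on V (score 100.18), and at 701671 on III, 12808530 on II, 13929163 on IV and 14956504 on IV (each 100.67). Just under the threshold, and found in both replicates, were peaks starting at 6784614 on V (99.82), 812908 on IV (99.72), 6172874 on III (99.4), and 1094115 on IV and 1389104 on II (both 98.96). The site at 13929163 on IV was 4187 bp wide and met replicate peaks of score 3100 in both lists, a value that many peaks shared. The other 4 of the lowest sites were 428 to 817 bp wide. A low series-wide score within the set thus included both a wide site at 3100 in both replicates and narrow sites below that value.

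The replicate lists, each ranked within itself, placed most strong sites near their top. The best overlapping replicate 1 peak had a median score of 2576 (interval 2112 to 3100) and ranged from 179.46 to 3215.58. It was in the highest 10% of its list for 331 sites (80.9%), against 9.89% of the weaker shared peaks. In replicate 2 the median was 2139 (1622 to 2632), the range 318.64 to 3220.05, and 205 sites (50.1%) were in the highest 10%, against 3.36% of the weaker shared peaks. Replicate 2 is the shorter list, so its highest 10% holds fewer peaks. Both lists had a large tie at 3100, with 223 peaks in replicate 1 and 222 in replicate 2. A score of 3100 or more was reached in both replicates by 171 strong sites, in replicate 1 alone by 18, in replicate 2 alone by 1 and in neither by 219. Of the 74 sites tied at the highest series-wide score, 68 reached it in both. All of this rests on the libraries that also chose the sites, and it is no independent check of them.

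**Figure D1:**
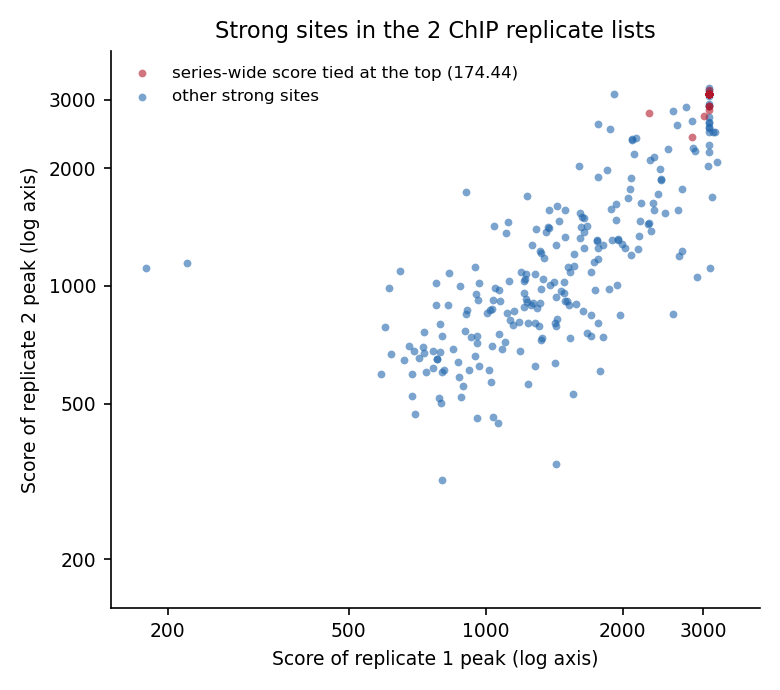
Score of the best overlapping peak in replicate 1 (x axis) and in replicate 2 (y axis) for the 409 strong sites, both on log axes without units; 171 sites have 3100 or more in both, so their points lie on each other at the upper right. Red points are the 74 sites tied at the series-wide score of 174.44 and blue points the other 335; the 2 blue points at the far left had 179.46 and 220.76 in replicate 1, with 1113 and 1142 in replicate 2.

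A few strong sites stood away from this pattern. The site on III from 701671 to 702098 had a score of 179.46 in replicate 1, at the 55.7th percentile of that list, and 1113 in replicate 2, at the 84.9th percentile. The site on IV from 15184021 to 15184490 was alike, with 220.76 in replicate 1 (percentile 61.7) and 1142 in replicate 2 (percentile 85.1). In the other direction, the site on II from 1358044 to 1358904 had 1428 in replicate 1 (percentile 91.9) and 350.17 in replicate 2 (percentile 62.2). The narrowest strong site, 288 bp on V from 18609800 to 18610087, had 801.45 in replicate 1 and 318.64 in replicate 2. Another site that favoured replicate 1 lay on II from 14244555 to 14245332, with 1062 and 445.99 in replicates 1 and 2. The site that came next among those favouring replicate 2, on II from 1975883 to 1977204, differed by only 2.20 percentile points. By percentile, 2 sites alone thus stood clearly higher in replicate 2. Percentiles depend on list length, and the tie at 3100 stood at 97.8 in replicate 1 and at 96.0 in the shorter replicate 2 list. Equal places from the top thus gave a higher percentile in replicate 1, and sites were not compared by place.

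The strong sites were wide. Their median width was 1114 bp (interval 986 to 1238; interquartile range 704 to 1902), against 528.5 bp (508 to 551) for the weaker shared peaks and 279 bp (274 to 283) for all 7333 other peaks. Widths of at least 1 kb were found in 222 strong sites (54.3%), in 17.3% of the weaker shared peaks and in 6.53% of all other peaks. Strong sites covered 618 kb, or 16.8% of the bases under all peaks of the 5 chromosomes. Width and score come from the same calls, so no test was made. Width did not single the set out fully, because of 201 peaks of 2000 bp or more only 91 were strong sites, 82 were weaker shared peaks and 28 were missing from a replicate.

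**Figure D2:**
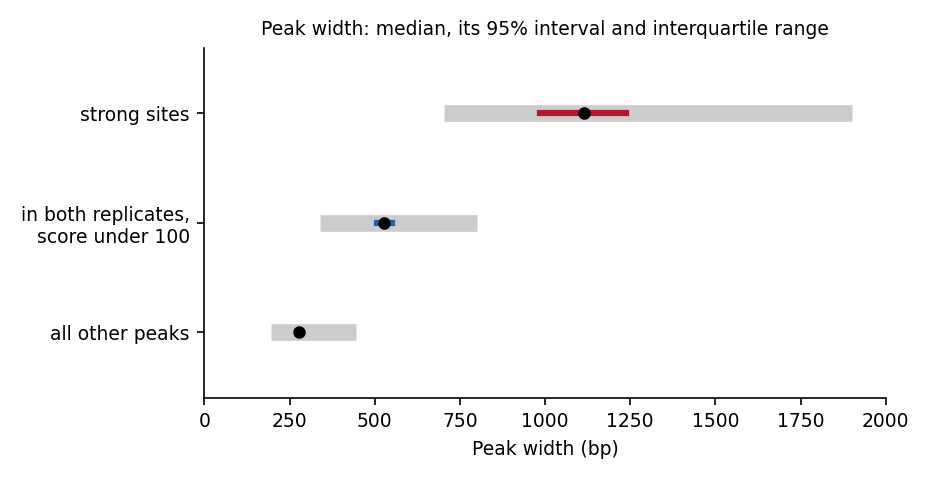
Peak width in bp for strong sites, weaker shared peaks and all other peaks on II, III, IV, V and X. Dots are medians (1114, 528.5 and 279 bp), coloured bars their 95% intervals and grey bars the interquartile ranges, and the grey bar of the strong sites reaches 1902 bp.

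Within the set, width went with score. The 84 sites with the lowest scores (100.18 to 114.24) had a median width of 738 bp, the next groups of 84 had 820 and 937 bp, the 83 just under the tie had 1647 bp, and the 74 tied sites had 1724 bp (interval 1522 to 2072). The widest sites of all were not the tied ones. The widest lay on V from 7915312 to 7925026, spanning 9715 bp with a score of 136.97. It met 1 peak in each replicate, of 9864 bp in replicate 1 and 9772 bp in replicate 2, and the replicate spans shared 99.1% of the bases that either covered. The next lay on X from 16929933 to 16939008, spanning 9076 bp with a score of 135.48. There replicate 1 had 6 separate peaks and replicate 2 had 2.

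On II the 3 widest sites were close to the left end, starting at 693179 (6241 bp), 1372245 (4325 bp) and 1429887 (7242 bp). On III they started at 185846 (6449 bp), 472007 (4700 bp) and 2496917 (6332 bp). On IV they were spread out, starting at 4920599 (5164 bp), 14475797 (5494 bp) and 15076224 (6875 bp). The other wide sites of V started at 18061337 (4949 bp) and 18075307 (6103 bp), and those of X at 2057703 (6231 bp) and 3073508 (4481 bp). Each of these 15 widest sites, 3 per chromosome, met a peak of score 3100 in both replicates. Their series-wide scores, in contrast, ran from 103.13 for the site at 2496917 on III to the tied 174.44.

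The replicates outlined the strong sites alike. The centers of the replicate spans lay a median of 38.5 bp apart (interval 33 to 44.5), and within 100 bp of each other at 300 sites (73.3%). The weaker shared peaks had a median of 37 bp (34 to 40), so the distance between centers did not separate the groups. The spans shared a median of 89.6% of the bases covered by either (88.6 to 90.9), against 81.1% (79.9 to 82.6) for the weaker shared peaks, and at 397 strong sites over 50%. Left edges differed by a median of 45 bp and right edges by 43 bp at strong sites, against 46 and 51 bp at weaker shared peaks. With similar edge differences, a wider span gives a larger shared fraction. Replicate 1 had the wider span at 256 sites and replicate 2 at 153.

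In each replicate list most sites met a single peak. Exactly 1 replicate 1 peak met 375 of the 409 sites and exactly 1 replicate 2 peak met 387. In each replicate 6 strong sites shared a peak with another strong site, so almost all were separate from the other strong sites there too. Replicate peaks that a strong site shared with a weaker series-wide peak were not counted. With a demand that the overlap cover 50% or more of each peak, 390 sites still had a partner in both lists.

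Strong sites lay on all 5 chromosomes at different densities. III had 103 sites, or 7.47 per Mb (interval 6.10 to 9.06), IV had 106, or 6.06 (4.96 to 7.33), and II had 91, or 5.96 (4.80 to 7.31). The intervals of these 3 overlapped. V had 76 sites, or 3.63 per Mb (2.86 to 4.55), and X had 33, or 1.86 (1.28 to 2.62). Other peaks numbered 129 per Mb on III, 99.2 on IV, 90.4 on II, 77.4 on V and 46.2 on X, which is the same order. As a share of all peaks of the chromosome, strong sites were 6.18% on II (5.01 to 7.54), 5.76% on IV, 5.47% on III, 4.48% on V and 3.88% on X (2.68 to 5.40), around the 5.28% over all 5. The intervals of II and X overlapped only between 5.01 and 5.40, and whether the shares differ between chromosomes was not tested.

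The makeup of the set differed between chromosomes in another way. On III, only 5 of the 103 strong sites (4.85%) were tied at the highest score, against 14 of 91 (15.4%) on II, 25 of 106 (23.6%) on IV, 20 of 76 (26.3%) on V and 10 of 33 (30.3%) on X. Median widths were 949 bp on III (774 to 1114), 1003.5 bp on V, 1174 bp on IV, 1207 bp on II and 1479 bp on X (1052 to 1902). X thus had the fewest strong sites but the largest tied share, and its median replicate score was 3100 in both lists. III had the most per Mb and the lowest medians, 1988 in replicate 1 and 1428 in replicate 2.

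Along the chromosomes, the strong sites of II and III were crowded toward the left end, the pairing-center end of both. On II, 38 of 91 strong sites (41.8%) lay within 2 Mb of that end, which is 13.1% of the chromosome. This gave 19 sites per Mb against 3.99 on the rest, a density ratio of 4.76 (interval 3.05 to 7.36). Other peaks of II had a ratio of 1.53 (1.33 to 1.75) and its weaker shared peaks 1.74 (1.33 to 2.26). On III, 45 of 103 strong sites (43.7%) lay within 2 Mb of the left end, with 22.5 sites per Mb there against 4.92 on the rest, a ratio of 4.57 (3.03 to 6.87). Other peaks of III had 1.90 (1.70 to 2.12) and its weaker shared peaks 2.97 (2.43 to 3.61).

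On IV and V the strong sites were not crowded at the pairing-center end, although other peaks were. IV had 11 of 106 strong sites within 2 Mb of its left end, a ratio of 0.90 (0.43 to 1.68), while its other peaks had 1.76 (1.55 to 1.99). The weaker shared peaks of IV had 1.18 (0.84 to 1.63), so they were not clearly crowded there either. V had 6 of 76 within 2 Mb of its right end, a ratio of 0.81 (0.29 to 1.86), against 1.89 (1.65 to 2.16) for its other peaks. Its weaker shared peaks had 2.03 (1.52 to 2.68). On V the value depended on the size of the end: for 3 Mb, strong sites had 1.47 (0.78 to 2.62) and other peaks 2.17 (1.94 to 2.42). X had 8 of 33 within 2 Mb of its left end, a ratio of 2.52 (0.98 to 5.75), next to 2.59 (2.20 to 3.05) for its other peaks. Its weaker shared peaks had 3.23 (2.22 to 4.63). For ends of 1 Mb the ratio of strong sites on X was 4.50 (1.65 to 10.6), from 7 of its 33 sites, above 3.68 on III and 2.82 on II. At that size other peaks of X had 3.28 (2.70 to 3.95) and its weaker shared peaks 4.68 (3.08 to 6.93). Other peaks had only 1.14 on III and 1.18 on II, and weaker shared peaks 1.02 and 1.48. As groups, II and III had a ratio of 4.69 (3.48 to 6.28) and IV, V and X 1.10 (0.69 to 1.67). With ends of 3 Mb these were 4.09 (3.05 to 5.48) and 1.35 (0.94 to 1.89). The difference was not tested, since sites are not replicates and the libraries number 2.

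**Figure D3:**
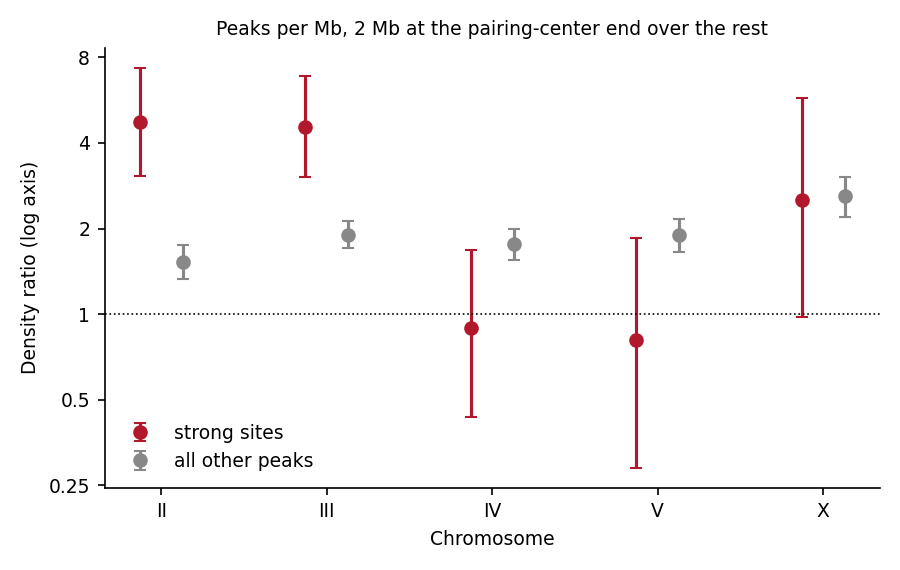
Density within 2 Mb of the pairing-center end divided by the density on the rest of the chromosome (log axis), for strong sites (red) and all other peaks (grey), with exact 95% intervals and a dotted line at 1. The red points of II (4.76) and III (4.57) lie above the grey ones, those of IV (0.90) and V (0.81) lie below them, and on X the 2 groups nearly coincide.

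The crowding depended partly on runs of neighbouring sites. When sites with gaps of at most 10 kb were counted once, a setting chosen after seeing the data, the ratio for II and III was 2.54 (1.72 to 3.69) and that for IV, V and X 1.05 (0.63 to 1.66). Weaker shared peaks, which were not joined into runs, had 2.44 (2.08 to 2.84) on II and III and 1.84 (1.53 to 2.20) on IV, V and X. These values are for single peaks, for which strong sites of II and III had 4.69 (3.48 to 6.28). A ratio by run was not computed for the weaker shared peaks, so the groups cannot be compared by run. The highest-scoring 409 peaks of each replicate, ranked on that replicate's own scores, gave 4.98 (3.70 to 6.68) in replicate 1 and 5.17 (3.79 to 7.02) in replicate 2 for II and III. For IV, V and X they gave 1.50 (1.00 to 2.18) and 1.10 (0.71 to 1.65). On X alone the ratio of the highest peaks was 5.34 (2.71 to 10.3) in replicate 1 and 2.77 (1.31 to 5.49) in replicate 2. The remaining peaks of each replicate had 2.07 and 2.16 for II and III and 1.95 and 1.88 for IV, V and X. In both libraries the ratio for II and III was thus above that for IV, V and X together, but in replicate 1 that of X alone was above the 5.26 of II and the 4.69 of III.

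The ratio changed with score across the whole list, and differently on the 2 groups of chromosomes. On II and III it was 1.34 (1.19 to 1.52) for scores under 10, 1.79 for 10 to 20, 2.77 for 20 to 50, 3.52 for 50 to 100, 3.81 for 100 to 150 and 6.44 (3.98 to 10.4) for 150 or more. On IV, V and X the same bands gave 1.89 (1.71 to 2.09), 2.13, 2.27, 1.53, 1.50 and 0.74 (0.33 to 1.47). Below a score of 20 the pairing-center ends of IV, V and X thus had the larger ratio, and in each band from 20 up those of II and III did. Single chromosomes did not all follow their group. For scores of 20 to 50 the ratio was 3.40 on III but 1.99 on II, with 1.22 on IV, 2.96 on V and 3.68 on X, and for 50 to 100 it was 4.55 on III and 2.21 on II, with 0.76 on IV, 2.16 on V and 2.52 on X. For 150 or more II had 6.06 (3.19 to 11.5) and III 7.15 (3.32 to 15.7), with 0.81 on IV and 1.96 (0.48 to 6.09) on X. In the highest band 38 of 75 peaks of II and III were within 2 Mb of the left end, and 9 of 110 peaks of IV, V and X were within 2 Mb of their pairing-center end. Of 37 peaks of V in that band, 0 lay there.

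**Figure D4:**
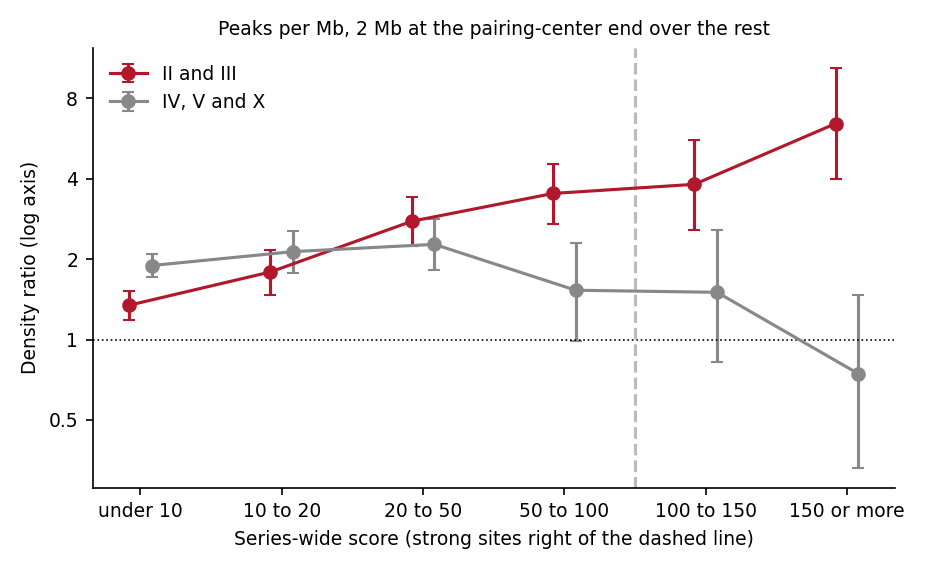
Density within 2 Mb of the pairing-center end divided by that on the rest (log axis) for 6 bands of series-wide score, in II and III (red) and in IV, V and X (grey), with exact 95% intervals; strong sites lie right of the dashed line. The red line goes up from 1.34 to 6.44 over the bands, and the grey line ends at 0.74, below the dotted line at 1.

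Seen from the peaks, 12.8% of the 296 peaks in the leftmost 2 Mb of II were strong sites (9.25 to 17.2), against 4.16% (2.96 to 5.67) of the 913 peaks more than 2 Mb from both ends. On III the shares were 9.39% of 479 peaks (6.94 to 12.4) and 4.57% of 1115 (3.42 to 5.97). On IV they were 3.31% of 332 (1.67 to 5.85) and 6.09% of 1313 (4.86 to 7.53), on V 2.17% of 276 (0.80 to 4.67) and 5.07% of 1281, and on X 3.79% of 211 and 3.65% of 521. At the opposite end, 5.70% of 263 peaks were strong on II, 2.43% of 288 on III and 7.65% of 196 on IV. The shares there were 3.60% of 139 on V and 5.04% of 119 on X. The 5 tied sites of III all lay within 2 Mb of its left end, 6 of the 14 of II did, and 0 of the 20 of V lay at its right end.

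Strong sites at the pairing-center ends of II, III and IV had larger median widths than those elsewhere on the same chromosomes. The median width was 1600 bp on II, against 962 bp for the other strong sites of II, and 1273 bp on III, against 770 bp. On IV it was 1453 bp for the 11 sites at the left end, against 1169 bp for the other 95. No test was made of these widths. On V and X the order was the other way, with 799.5 bp for the 6 sites at the right end of V and 1075.5 bp for the other 70, and 1129 bp for the 8 sites at the left end of X and 1647 bp for the other 25. The 15 sites within 2 Mb of the opposite end of II and the 7 of III were wide too, with medians of 1553 and 2299 bp, so width within II and III was lowest in the middle, at 887 and 766 bp. Width was not used by the position count, but both widths and scores come from the same peak calls.

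**Figure D5:**
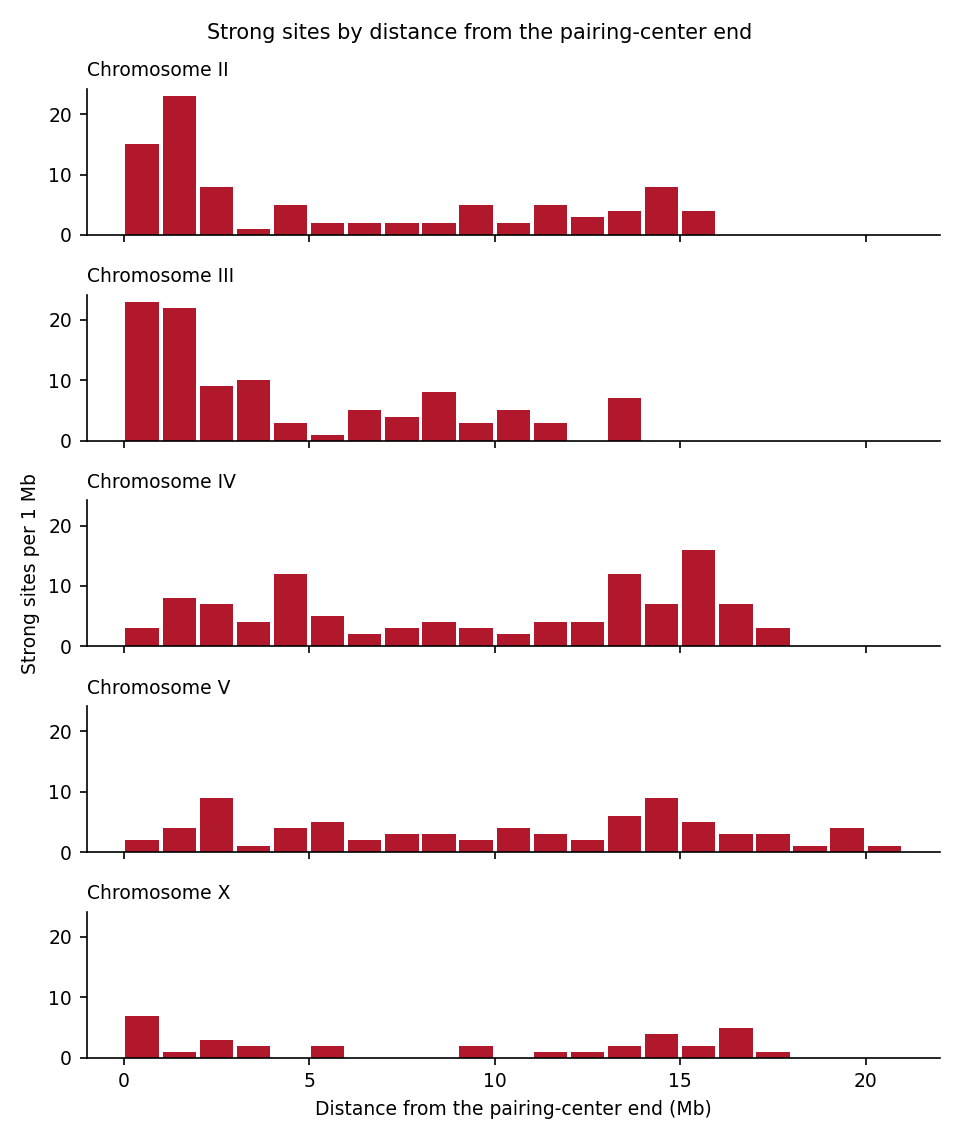
Number of strong sites in each 1 Mb (bars) by distance in Mb from the pairing-center end, which is the left end of II, III, IV and X and the right end of V; the last bar of each chromosome covers less than 1 Mb. The first 2 bars hold 15 and 23 sites on II and 23 and 22 on III, while the highest bar of IV (16) stands between 15 and 16 Mb from its pairing-center end.

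In 1 Mb steps, II had 15 strong sites in the first Mb, 23 in the second, 8 in the third and 1 in the fourth, and at most 8 in any later one. III had 23, 22, 9 and 10, followed by at most 8. On IV the steps with most sites were from 15 to 16 Mb, with 16 sites, and 2 others with 12 each, from 4 to 5 and from 13 to 14 Mb. On V, counted from its right end, the steps with most of the 76 sites held 9 each, from 2 to 3 and from 14 to 15 Mb. On X the first Mb held 7 of the 33 sites, and 5 of its 18 steps held none.

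Long stretches had peaks but no strong site. On X none lay between 5230899 and 9007053, a gap that held 132 other peaks. On III none lay between 11161320 and 13160461, a gap with 272 other peaks. The longest distances between centers of neighbouring strong sites were 3.78 Mb on X, just over 2 Mb on III, 1.31 Mb on V, 0.90 Mb on II and 0.80 Mb on IV. The median distance between neighbouring strong sites was 53.7 kb on III, 102 kb on II, 128 kb on IV, 147 kb on V and 296 kb on X.

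Strong sites tended to have other strong sites near them. Another lay within 50 kb, center to center, of 223 strong sites (54.5%; 49.6 to 59.4), and a strong site lay that near to 46.2% of weaker shared peaks (43.7 to 48.6) and to 42.3% of all other peaks (41.2 to 43.4). Within 10 kb the shares were 30.8%, 18.4% and 15.2%. Within 100 kb they were 68.7% (64.0 to 73.2), 64.5% (62.1 to 66.8) and 62.0% (60.9 to 63.1), so there the intervals of strong sites and weaker shared peaks overlapped. The number of peaks of any score within 50 kb did not separate the groups, with medians of 12 for strong sites (11 to 13), 13 for weaker shared peaks and 12 for all other peaks. On II, 35 of the 38 sites at the pairing-center end had a strong neighbour within 50 kb, against 18 of the other 53. On III the counts were 41 of 45 and 30 of 58. On IV they were 5 of 11 and 45 of 95, on V 3 of 6 and 37 of 70, and on X 5 of 8 and 4 of 25.

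Joined over gaps of at most 10 kb, the 409 sites formed 330 separate places, of which 276 held 1 site, 41 held 2 and 13 held 3 or more. These 13 runs contained 51 sites; 5 were on III, 4 on II, 3 on V, 1 on IV and 0 on X, and 8 of the 13 were within 2 Mb of a pairing-center end. The largest run held 9 sites on II from 1302933 to 1329358, a stretch of 26.4 kb of which the sites covered 63.0%, with 6 further peaks between them. Its scores went from 101.54 to 172.78, so none was tied at the highest value. The next held 6 sites on III from 470092 to 499610 (52.2% covered; scores 115.59 to 173.73). The other 3 of the 5 largest runs, with 4 sites each, lay on III from 333648 to 347807, on II from 1401959 to 1415173 and on V from 18052961 to 18081409. The run on III was covered to 68.2%, that on II to 56.2% and that on V to 49.2%. Of these 5 runs, only that on V was outside the 2 Mb pairing-center ends.

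The outermost strong sites showed how near to the ends the set reached. The first sites started at 24394 on II, 77812 on III, 280499 on IV, 8011 on V and 47260 on X. The last ended at 15143372 on II, 13754760 on III, 17250120 on IV, 20580933 on V and 17311837 on X. The first site of III was tied at the highest score and 3130 bp wide. The first sites of II, V and X were narrower, at 598, 1021 and 721 bp, with scores from 100.86 to 122.74. The last sites of II and X were tied at 174.44, at 2302 and 2115 bp, and those of III, IV and V had 126.95, 149.71 and 125.47.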

How the data were processed

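Peaks were read from 3 deposited lists: 1 for each ZIM-1 ChIP replicate and 1 for the whole series. Per the file headers, positions are on WormBase WS220, and the lists name MACS (replicates) and MACS v2 (series-wide) as peak caller. The submitters' processing notes name BWA and ce10, the UCSC name of that release. The score is the authors' value per peak, as deposited, with its quantity not named; the pooling, control and settings behind the series-wide list are not given in the sources used here. Read depth is unknown, so a missing peak does not show absence of binding.

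Peaks sharing at least 1 bp were matched with Python 3.11.15, numpy 2.4.6, pandas 2.3.3 and scipy 1.17.1. A replicate span runs from the first to the last base of all replicate peaks that meet a site. Shared bases were divided by bases under either span. The end of the last peak in any list stood for the chromosome's length, and location used peak midpoints. Shares have exact Clopper-Pearson intervals, densities exact Poisson intervals, density ratios exact conditional intervals and medians order-statistic intervals. No test was made over peaks, which are not replicates. The matching, counting and interval steps were tested on simulated data.

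The members, the lists compared and the settings were chosen with earlier results of these data known. Named sites were the 3 widest of each chromosome, the first and last, the 5 on either side of the score threshold, the 5 runs with most sites, and the 3 sites most in favour of each replicate by percentile. Alternatives were score thresholds of 50 and 150, a 50% overlap, use of 1 replicate, and other distances and end sizes. Genes and sequence were not analysed here.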

Additional observations from a re-analysis of the deposited data

How the results depend on the processing

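No paired analysis was possible because only ChIP peaks were analysed, leaving every value without an input partner. Of 105 values under other settings, 79 stayed within the interval of the reported value (for counts, within 1.5 times it), and 26 did not. Needing a peak in only 1 replicate changed none of the 26 values computed that way, since every site was in both lists. These 26 count among the 79, and their outcome was fixed in advance. So was the count of 74 tied sites at other score thresholds. With a score threshold of 50 there were 853 sites with a median width of 735 bp. Of these 71.2% had another within 50 kb, 30.4% lay on III and 21.6% on IV; the median offset of replicate centers was 31 bp, the median scores were 1147 in replicate 1 and 809.83 in replicate 2, and 1 peak was missing from a replicate. With a threshold of 150 there were 185 sites with a median width of 1583 bp; 44.3% had another within 50 kb, 16.8% lay on III, the offset was 54.5 bp, the replicate 2 median was 3100 and the ratio for II and III was 6.44. Fewer or more sites enter by construction. A 50% overlap left 19 peaks of score 100 or more without a partner in both. Shares with a strong neighbour were 30.8% at 10 kb and 68.7% at 100 kb (64.5% for weaker shared peaks), with medians of 3 and 23 peaks of any score. For ends of 1 Mb the ratio for II and III was 3.30 (other peaks 1.17) and that for X alone 4.50 (other peaks 3.28), and the cause was not tested. Over all 5 chromosomes the ratio was 2.70 (2.15 to 3.37), 2.06 without III and 3.51 without IV, which had high and low ratios of their own. With each run counted once, chosen after seeing the data, it was 1.74 over all 5 and 2.54 for II and III. Weaker shared peaks, not joined into runs and so not counted alike, had 2.24 and 2.44. In all 11 settings, the reported one included, the ratio for II and III was above that for IV, V and X together. X alone was above II and III for ends of 1 Mb and for the highest peaks of replicate 1. Single chromosomes were not computed in every setting. The ratios for II and III alone, for IV, V and X, and the replicate scores were recomputed under other settings only after seeing the data. The plan of results listed the ratio over all 5 chromosomes and did not list this split of chromosomes.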
